A study of Danio rerio with 10 samples.

Results

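The 10 genes of the transforming growth factor beta (TGF-beta) and bone morphogenetic protein (BMP) pathways described here are the ligand genes tgfb1a, tgfb2, tgfb3, bmp2b, bmp4 and mstnb, the receptor-activated SMAD genes smad1, smad3a and smad3b, and the inhibitory SMAD gene smad7. They were found by name in the authors' tables of chromatin regions and are 10 of the 24860 genes named there. For the acetylation of histone H3 at lysine 27 (H3K27Ac), 45 regions listed a member, from 9 of the genes. For the trimethylation of lysine 4 (H3K4me3), 14 regions listed a member, from all 10 genes, and for the trimethylation of lysine 27 (H3K27me3), 22 regions did, from 8 of the genes. No region listed more than 1 member.

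Sequencing of immunoprecipitated chromatin mapped these marks in an eye muscle of adult zebrafish, the lateral rectus, at an age of 4 to 18 months. Muscle came from uninjured fish (control) and from fish at 9 and 18 hours post-injury (hpi), after about 50% of the muscle had been cut out on each side. The labels give pools of 119 control fish, 192 fish at 9 hpi and 200 fish at 18 hpi, and the treatment label reads injury for the control libraries as well. Fish were wild-type according to the design text, but according to the growth protocol α-actin::EGFP fish, in which an actin promoter drives the green fluorescent protein, were used beside wild-type ones, and the genotype of each pool is not given. The 9 libraries used are 1 for every mark at every time. The input library was left aside. The comparisons ask how the chromatin of these signalling genes differed between injured and uninjured muscle.

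TGF-beta and BMP ligands are secreted dimers that bind receptor kinases of type I and type II, which phosphorylate receptor-activated SMAD proteins. These join the common partner Smad4, enter the nucleus and regulate target genes, while inhibitory SMADs such as Smad7 shut the signal off. In muscle, myostatin restrains growth, TGF-beta ligands drive matrix deposition and hold back differentiation, and BMPs act on muscle mass and on the expansion of progenitors. Of the histone marks, H3K27Ac lies at promoters and enhancers in use, H3K4me3 at promoters, and H3K27me3 at genes that Polycomb complexes keep silent.

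Values are average pileups, the mean number of overlapping tags per position of a region. The mean over a wide region can take in positions outside the called intervals, so levels of regions of different length compare only roughly. A region is the union of overlapping called intervals of the 3 libraries of a mark, and a gene's start region is the region whose middle lies nearest the gene start. "Higher" and "lower" below mean a change of at least 2-fold on the scale log2((injured + 1)/(control + 1)), and all other differences are given as values. Without a second library of any mark at any time, differences have no replicate check, no error can be given and no test was possible. Comparisons at 9 and 18 hpi share their control library. A region called in 1 library alone is in the tables because that library was high there, so its difference is partly a consequence of the choice. The median H3K27Ac change over the 31189 regions with a mean pileup at or above the low-value limit (7.78, the 25th percentile) was 0.23 at 9 hpi and −0.16 at 18 hpi, so H3K27Ac changes are given as relative log2 changes, with this median subtracted. For H3K4me3 it was −0.05 and −0.04 and for H3K27me3 −0.00207 and −0.02, and those changes are given as deposited. All coordinates count from 1 on danRer10.

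At the gene starts, bmp4 had lower H3K27Ac at 9 hpi and bmp4 and tgfb2 at 18 hpi. H3K4me3 was lower at mstnb at 9 hpi and at mstnb and bmp4 at 18 hpi. H3K27me3 was higher at smad1 at 18 hpi. Of 9 H3K27Ac start regions, 1 was lower and 0 were higher at 9 hpi, where 6.34% of the start regions of all genes were lower and 12.4% higher. At 18 hpi 2 were lower and 0 higher, against 10.4% and 4.56% of all genes. After centring, 2 were lower at 9 hpi (bmp4 and mstnb) and 0 at 18 hpi, where bmp4 was at −0.94 and tgfb2 at −0.96, and none was higher. Of all genes, 9.14% were then lower and 6.89% higher at 9 hpi, and 7.78% and 6.79% at 18 hpi. The median relative log2 change of the 9 was −0.73 at 9 hpi and −0.38 at 18 hpi, beside 0.12 and 0.0009 for all genes. Of 10 H3K4me3 start regions, 1 was lower at 9 hpi (2.96% of all genes) and 2 at 18 hpi (3.05%), with none higher (2.83% and 3.96%), and the medians were −0.49 and −0.36, beside −0.05 and −0.01 for all genes. Of 8 H3K27me3 start regions, 0 were higher at 9 hpi (0.431% of all genes) and 1 at 18 hpi (0.536%), with none lower (0.0874% and 0.163%). The number of members is small, and a count of 1 or 2 lies near these shares for H3K27Ac. The mstnb start regions of H3K27Ac and H3K4me3 held an interval in control alone. That of smad1 in H3K27me3 held an interval at 18 hpi alone. Counts that rest on these regions follow in part from the choice of regions.

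Markers of the cell types in the tissue also differed between the libraries. The summed H3K27Ac of 19 muscle start regions (of 21 markers) was 369.5 in control muscle, 224 at 9 hpi and 148 at 18 hpi, with 10 lower at 9 hpi and 13 at 18 hpi and none higher. In control 18 of the 19 held an interval, and no region listed actc1a or des. The sum of 9 fibroblast and tendon start regions (of 14 markers) was 171 in control muscle, 87.0 at 9 hpi and 90.7 at 18 hpi, with 5 and 6 lower and 1 higher at each time, and this list shares dcn with the list of pathway antagonists. The sum of 14 leukocyte start regions (of 16 markers) was 159, 306.5 and 182, with 9 higher at 9 hpi and 3 at 18 hpi. In control 9 of the 14 held an interval. The others were included through an injured library, so differences there are partly a consequence of the choice. Of the leukocyte markers 1, cd74a, was lower at 18 hpi, and no region listed lcp1 or lyz. The sum of 9 distinct endothelial start regions, which serve all 10 markers, was 98.9, 122 and 81.9. Of the start regions of all genes, 12.4% were higher and 6.34% lower at 9 hpi, and 4.56% and 10.4% at 18 hpi. No marker region was at 0. Some marker start regions lay far from the gene start, so the sums are not all signal at the named genes. Examples in H3K27Ac were tnni2a.4 (16360 bp) and pvalb1 (15153 bp). In H3K4me3 they were actc1b (10524 bp) and mpx (14155 bp), the latter with 49.7 in control muscle, 54.7 at 9 hpi and 49.0 at 18 hpi. In H3K4me3, 6 of 13 leukocyte and 7 of 10 endothelial start regions held an interval in control. For muscle 18 of 18 did, and for fibroblasts and tendon 8 of 9. The H3K4me3 sums were 288, 159.5 and 179.7 for muscle and 229, 137 and 156 for fibroblasts and tendon. For leukocytes they were 160.2, 234 and 259 and for endothelium 89.0, 119 and 152. The part of these shifts in the changes at the members was not tested, and fewer cells of a type and less of a mark per cell cannot be told apart in pooled tissue. In H3K27me3, no start region of the 4 marker lists was past 2-fold at either time. Of all genes only 0.431% and 0.536% were higher and 0.0874% and 0.163% lower, so a count of 0 lies near these shares. The H3K27me3 sums were 149.5, 148.5 and 151 for muscle and 75.1, 82.1 and 79.7 for fibroblasts and tendon. For leukocytes they were 127.9, 122.7 and 121.3 and for endothelium 100.5, 92.0 and 95.8.

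**Figure D1:**
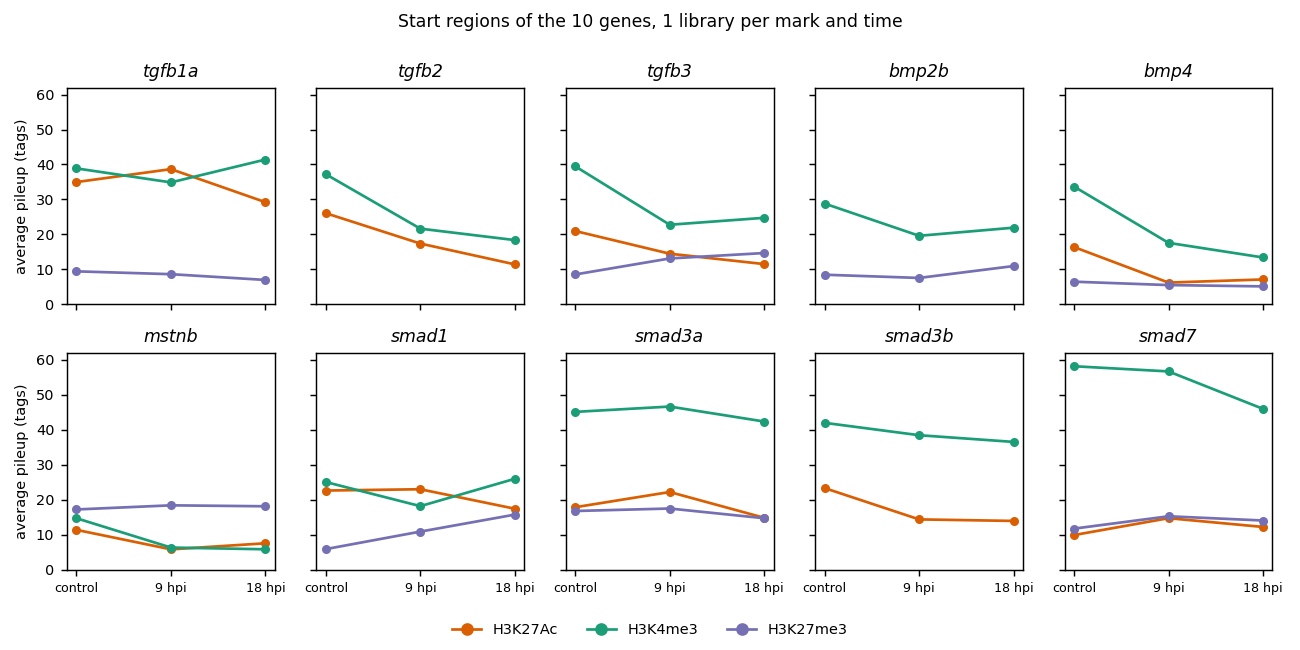
Average pileup (tags) of the start region of each of the 10 genes in the control, 9 hpi and 18 hpi libraries, with 1 line per mark and 1 library per point. No H3K27Ac region listed bmp2b and no H3K27me3 region listed tgfb2 or smad3b. The H3K4me3 lines of bmp4 and mstnb end at 13.4 and 5.85, and the H3K27me3 line of smad1 ends at 15.8.

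The 3 TGF-beta ligand genes differed from each other. The gene tgfb1a encodes the founding ligand of the family. Its start region (chromosome 15, 2839201 to 2844000, 1407 bp upstream) had the highest average H3K27Ac pileup of the 9 start regions in control. Its H3K27Ac pileup was 35.0 in control muscle, 38.7 at 9 hpi and 29.2 at 18 hpi, with relative log2 changes of −0.09 at each time. Its H3K4me3 was 38.9, 34.9 and 41.4 at the same times and its H3K27me3 9.45, 8.63 and 6.99. All 3 marks at the tgfb1a start thus stayed less than 2-fold from control. Away from the start, a region 5807 bp upstream (chromosome 15, 2845201 to 2846800) had H3K27Ac of 2.94 in control muscle, 6.83 at 9 hpi and 10.4 at 18 hpi, with an interval called at 18 hpi alone and a relative log2 change of 1.70 there. A region inside the gene, 20693 bp from its start, went the other way, with 9.91 in control muscle, 3.10 at 9 hpi and 4.75 at 18 hpi and an interval in control alone. The means of these 2 regions lay below the low-value limit of 7.78.

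At tgfb2, H3K27Ac was lower in several regions inside the gene. The start region (chromosome 16, 2568001 to 2570600), which holds an annotated CpG island, had 26.1 in control muscle, 17.4 at 9 hpi and 11.4 at 18 hpi. Of 11 H3K27Ac regions that listed tgfb2, 11 were below control at 9 hpi and 10 at 18 hpi. Past 2-fold were 5 and 4 of them (5 and 3 after centring). Of all regions that list a gene, 13.2% and 16.8% were lower (18.7% and 12.8% after centring). The share of all regions below control was not counted. All 11 tgfb2 regions held an interval in control and 6 at each injured time, so these counts follow in part from the choice. All of the regions past 2-fold at 9 hpi lay inside the gene. The region 52562 bp into the gene (chromosome 16, 2516601 to 2518000) had 25.8 in control muscle, 4.25 at 9 hpi and 5.14 at 18 hpi. Its relative log2 change was −2.58 at 9 hpi. Of the 5 regions past 2-fold at 9 hpi, 3 (at 52562, 58562 and 33962 bp) held an interval in control alone and so are in the table because control was high there. The region at 58562 bp had 20.2, 7.24 and 4.43 at the 3 times, and the region at 19462 bp had 18.8, 4.93 and 6.71. Intervals covered 29.2 kb in 11 pieces in control, 14.4 kb in 6 pieces at 9 hpi and 22.6 kb in 6 pieces at 18 hpi, and the mean pileup over all 39.2 kb was 14.2, 8.81 and 8.03. H3K4me3 at the start of tgfb2 (chromosome 16, 2562801 to 2570600) was 37.2, 21.7 and 18.4, a log2 change of −0.75 at 9 hpi and −0.98 at 18 hpi, so it stayed short of 2-fold.

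The start region of tgfb3 (chromosome 17, 52018001 to 52021400) had H3K27Ac of 21.0 in control muscle, 14.5 at 9 hpi and 11.5 at 18 hpi. H3K4me3 there was 39.5, 22.8 and 24.8, with log2 changes of −0.77 and −0.65. H3K27me3 in a 1200 bp region over the start (chromosome 17, 52020001 to 52021200) was 8.55, 13.1 and 14.7, with log2 changes of 0.56 and 0.72 and an interval at 18 hpi alone. A neighbouring region moved differently: the region 3799 bp upstream of tgfb3 had H3K27Ac of 21.1 in control muscle, 46.0 at 9 hpi and 21.1 at 18 hpi, a relative log2 change of 0.86 and then 0.16. Its middle lies 53 bp from the start of LOC101882665, so it is the promoter region of that gene by position. Inside and beyond tgfb3, the region 7701 bp into the gene had 18.6, 9.97 and 6.81 and that at 40901 bp had 13.5, 5.16 and 2.98, and both of these were lower at 18 hpi. Each held an interval in control alone and so was included because control was high there. The mean of the region at 40901 bp lay below the low-value limit.

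**Figure D2:**
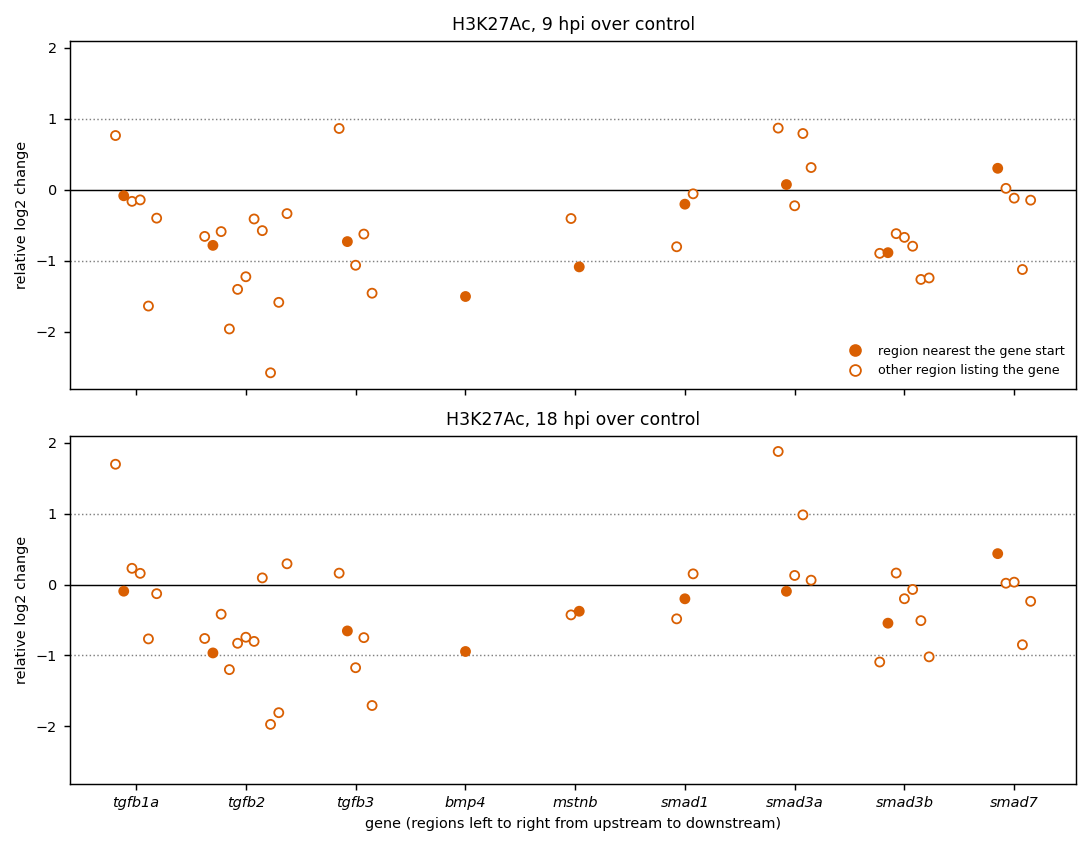
Relative log2 change of H3K27Ac (median of kept regions subtracted) at 9 hpi and 18 hpi over control for each of the 45 regions that list a member, 1 point per region, with the start region filled and dotted lines at 2-fold. All 11 points of tgfb2 and all 7 of smad3b lie below 0 at 9 hpi, while 4 of the 5 points of smad3a lie above it.

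The BMP ligand genes bmp2b and bmp4 code for close relatives that pattern the embryo and act in bone and muscle. The start region of bmp4 (chromosome 17, 50484601 to 50490200) had H3K27Ac of 16.4 in control muscle, 6.23 at 9 hpi and 7.13 at 18 hpi, with relative log2 changes of −1.50 and −0.94. The called interval was 5.6 kb wide in control, 0.8 kb at 9 hpi and 4.8 kb at 18 hpi. The maximum pileup inside it was 42 in control muscle, 45 at 9 hpi and 29 at 18 hpi, so the summit was not lower at 9 hpi while the mean over the region was. H3K4me3 over the start of bmp4 was 33.7, 17.6 and 13.4, with log2 changes of −0.90 and −1.27. H3K27me3 there was 6.49, 5.52 and 5.15, below the low-value limit of that mark, and no interval was called at 18 hpi. The average pileup of all 3 marks at bmp4 was thus below control in both injured libraries, past 2-fold for H3K27Ac at each time (9 hpi alone after centring) and for H3K4me3 at 18 hpi.

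No H3K27Ac region listed bmp2b. Its H3K4me3 (chromosome 20, 45989001 to 45991200) was 28.8 in control muscle, 19.6 at 9 hpi and 21.9 at 18 hpi. Its H3K27me3 start region, 2048 bp upstream (chromosome 20, 45987001 to 45987800), had 8.48, 7.56 and 11.0 and an interval at 18 hpi alone. Another H3K27me3 region, which spans the gene start though its middle is farther off (chromosome 20, 45988801 to 45995000), which holds 2 CpG islands, had 7.61, 9.47 and 10.7 at these times. The interval inside the spanning region was 2.4 kb wide in control, 2.0 kb at 9 hpi and 6.2 kb at 18 hpi.

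The gene mstnb encodes myostatin, a muscle-made inhibitor of muscle growth. It lay inside a 20.8 kb H3K27me3 region (chromosome 9, 41127401 to 41148200) with 17.2 in control muscle, 18.4 at 9 hpi and 18.1 at 18 hpi, higher in control than 91.6% of all genes' start regions. H3K4me3 over its start (chromosome 9, 41137001 to 41141200) was 14.7 in control muscle, 6.35 at 9 hpi and 5.85 at 18 hpi, with log2 changes of −1.1 and −1.20 and an interval in control alone. The H3K27Ac region nearest its start, 3950 bp away and downstream of the gene, had 11.4, 5.83 and 7.57 and an interval in control alone. This gave a relative log2 change of −1.09 and then −0.38. Another H3K27Ac region, 4150 bp upstream of mstnb and inside c9h2orf88, had 21.5, 18.9 and 14.0. The H3K4me3 change at mstnb rests on a region whose mean lay below the low-value limit of 12.2 for that mark.

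The start regions of all SMAD genes among the members kept H3K27Ac and H3K4me3 within 2-fold of control. Of these genes, smad1 carries BMP signals and smad3a TGF-beta signals. H3K27Ac at smad1 (chromosome 1, 35194801 to 35202400) was 22.7 in control muscle, 23.0 at 9 hpi and 17.4 at 18 hpi. H3K4me3 was 25.1, 18.2 and 26.0 at the same times. In H3K27me3, a 1400 bp region 277 bp from the start of smad1 (chromosome 1, 35196001 to 35197400) had 5.91, 10.9 and 15.8, log2 changes of 0.79 and 1.28, and an interval at 18 hpi alone. The change at 18 hpi lay at percentile 99.65 of the 15132 H3K27me3 regions that list a gene. The region was included through the 18 hpi library, so this rank follows in part from the choice. The other H3K27me3 region of smad1 (chromosome 1, 35155001 to 35163800), 37577 bp from its start, had 7.07, 6.36 and 5.36. It held no interval at 18 hpi, and its mean lay below the low-value limit. Over both regions, 10.2 kb in all, mean H3K27me3 was 6.91, 6.98 and 6.79. Marks that overlap in pooled tissue may lie in different cells, and these data cannot tell the cases apart.

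The paralogs smad3a and smad3b encode near-identical signal transducers and differed in H3K27Ac. The start region of smad3a (chromosome 7, 33872201 to 33881000) had 17.9 in control muscle, 22.2 at 9 hpi and 14.8 at 18 hpi, while that of smad3b (chromosome 18, 19780401 to 19786400) had 23.4, 14.4 and 14.0. The maximum pileup of the smad3b region went the other way, with 78, 99 and 91, so its direction depends on the measure taken. On the average pileup the relative log2 changes were 0.07 and −0.09 for smad3a and −0.89 and −0.54 for smad3b. Over all regions of each gene, the mean H3K27Ac was 10.5, 15.3 and 11.6 on 25.8 kb for smad3a and 14.0, 8.42 and 8.50 on 21.8 kb for smad3b. Of 7 smad3b regions, 7 were below control at 9 hpi and 6 at 18 hpi, and 2 were lower past 2-fold at each time. Of all regions that list a gene, 13.2% and 16.8% were lower. Those lower at 9 hpi, 25953 and 32853 bp into smad3b, had means below the low-value limit. All 7 held an interval in control, against 3 at 9 hpi and 4 at 18 hpi, so these counts follow in part from the choice. Of 5 smad3a regions, 4 were above control and 1 equal to it at 9 hpi, while 2 were above and 3 below control at 18 hpi. In control 3 of the 5 held an interval. The region 23085 bp into smad3a had 6.54, 14.3 and 12.4, with relative log2 changes of 0.79 and 0.98. The region 6715 bp upstream of smad3a had 2.07, 5.56 and 9.10, with an interval at 18 hpi alone and a relative log2 change of 1.88 there, at a mean below the low-value limit. How any tags that fit both paralogs were assigned is not given, and the difference between the genes was not tested. H3K4me3 was close to control at both starts, with 45.1, 46.7 and 42.4 at smad3a and 42.0, 38.5 and 36.6 at smad3b.

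The paralogs also differed in H3K27me3, since no region listed smad3b while 6 regions listed smad3a. The region over the start of smad3a (chromosome 7, 33872001 to 33886400) had 16.8, 17.5 and 14.7. Across the other regions of smad3a H3K27me3 ran from 6.98 to 10.8 in control, 7.24 to 10.0 at 9 hpi and 5.03 to 9.47 at 18 hpi. Of its 6 regions, 4 were below control at 9 hpi and 6 at 18 hpi, none past 2-fold. Intervals covered 54.2 kb in control, 47.0 kb at 9 hpi and 36.0 kb at 18 hpi.

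The gene of the inhibitory SMAD, smad7, had higher H3K27me3 over its start in both injured libraries, while H3K27Ac and H3K4me3 there stayed within 2-fold of control. The H3K27me3 region that spans its start (chromosome 21, 3290401 to 3302200), with an interval in all 3 libraries and an annotated CpG island, had 8.43 in control muscle, 20.6 at 9 hpi and 19.2 at 18 hpi. The log2 changes of 1.20 and 1.1 lay at percentiles 99.55 and 99.23 of all H3K27me3 regions that list a gene. This region is not the start region by the distance of its middle, which is a 2.4 kb region 3401 bp upstream with 11.8, 15.3 and 14.1. Of the 8 H3K27me3 regions that listed smad7, 6 held no interval in control and are in the table through the injured libraries, so that control was the lowest there follows in part from the choice. The other 2, the spanning region and the nearest one, were also above control at each time. Past 2-fold were the spanning region at each time and, at 9 hpi, a region 19899 bp into the gene with 3.79, 9.20 and 7.30 and an interval at 9 hpi alone. Among all 22 H3K27me3 regions of the members, 2 were higher at 9 hpi, both of smad7, and 2 at 18 hpi, of smad7 and smad1, or 9.09%, where 0.866% and 1.09% of all regions that list a gene were. None was lower (0.172% and 0.258%). The region 19899 bp into smad7 and that of smad1 held an interval only in the library where each was higher. Their part in the 9.09% thus follows in part from the choice. A rule chosen after seeing the data took the region that spans the start in place of the nearest. By that rule 1 of the 8 members was higher at 9 hpi (0.443% of all genes) and 2 at 18 hpi (0.525%). Intervals covered 11.4 kb in 2 pieces in control, 28.2 kb in 8 pieces at 9 hpi and 27.8 kb in 5 pieces at 18 hpi, and the mean over all 36.4 kb was 6.60, 13.0 and 11.9.

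Over the same stretch of smad7, H3K27Ac (chromosome 21, 3293001 to 3302400) was 30.6 in control muscle, 36.5 at 9 hpi and 27.7 at 18 hpi, with relative log2 changes of 0.02 at each time. H3K4me3 (chromosome 21, 3293401 to 3302400) was 58.2, 56.7 and 46.0, the highest of the 10 start regions in every library. Its interval was 8.8 kb wide in control and at 9 hpi and 6.2 kb at 18 hpi. An H3K27Ac region 12999 bp into smad7 had 17.0, 8.66 and 7.96, with an interval in control alone.

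**Figure D3:**
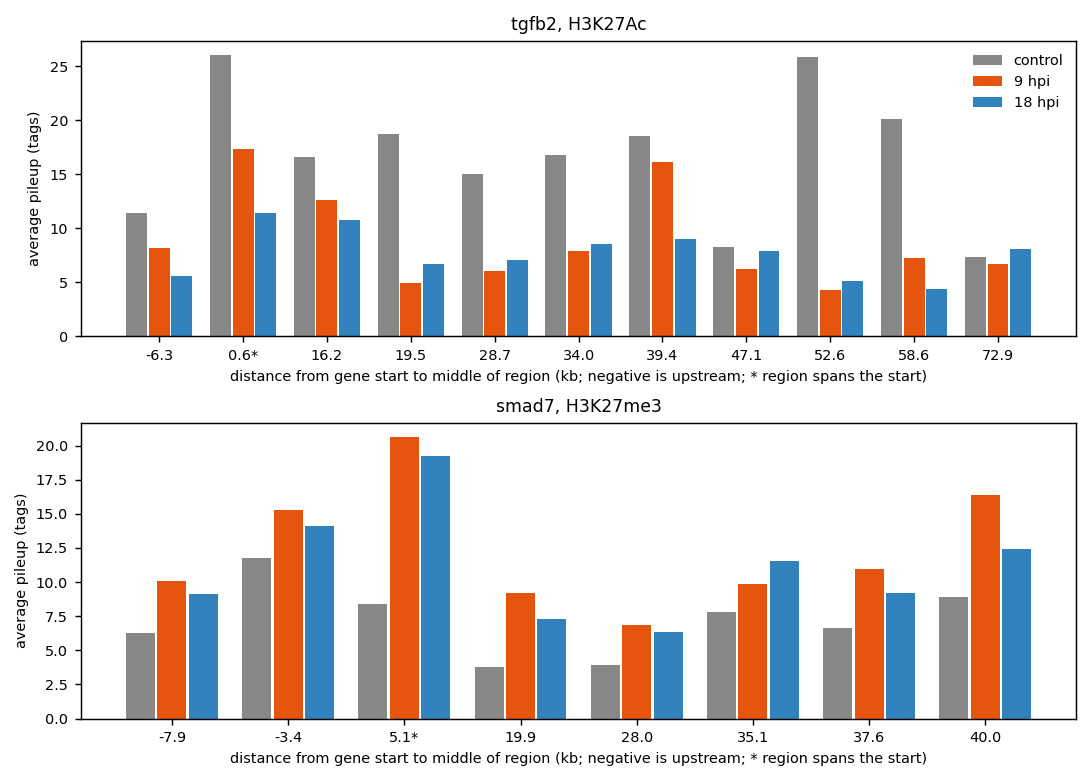
Average pileup (tags) in control, 9 hpi and 18 hpi for the 11 H3K27Ac regions that list tgfb2 and the 8 H3K27me3 regions that list smad7, placed in order of the distance from gene start to the middle of the region in kb. At tgfb2 the control bar is the highest in every region but that 72862 bp from the start, and all 11 regions held an interval in control. At smad7 the control bar is the lowest in every region, of which 6 held no interval in control.

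Across the members, 29 of the 45 H3K27Ac regions held an interval at 9 hpi and 29 at 18 hpi, against 42 in control. Intervals were not counted in this way over all regions, so whether the drop is particular to the members was not tested. At 9 hpi 10 of the 45 regions were lower (22.2%) and 3 higher (6.67%), where 13.2% and 13.0% of all regions that list a gene were. At 18 hpi 10 were lower (22.2%) and 2 higher (4.44%), against 16.8% and 7.68%. After centring, 13 were lower and 0 higher at 9 hpi (18.7% and 7.9% of all) and 7 lower and 2 higher at 18 hpi (12.8% and 11.1% of all). Many of the lower regions, such as those of tgfb3, held an interval in control alone. The 2 higher at 18 hpi held an interval at 18 hpi alone. Such regions were included because that library was high there, so these counts follow in part from the choice. In H3K4me3, 1 of the 14 regions was lower at 9 hpi and 2 at 18 hpi, against 4.02% and 3.95% of all regions that list a gene, and none was higher, against 3.2% and 4.67%. Regions of 1 gene share a locus and are not independent, and tgfb2 alone gave 5 of the 10 lower regions at 9 hpi.

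In control, the order of the average H3K27Ac pileup at the start regions was tgfb1a, tgfb2, smad3b, smad1, tgfb3, smad3a, bmp4, mstnb and smad7. The width of a region enters this order. At smad3a the mean was 17.9 over the region of 8800 bp and 26.8 in its control interval of 5000 bp. Its maximum pileup of 141 was above the 139 of tgfb1a. The neighbours tgfb2 (26.1), smad3b (23.4), smad1 (22.7) and tgfb3 (21.0) lay close together, and with no replicate their order has no error. The region that spans the smad7 start had 30.6 and would stand second, since smad7 is last through the 800 bp region nearest its start by its middle. For H3K4me3 the order was smad7, smad3a, smad3b, tgfb3, tgfb1a, tgfb2, bmp4, bmp2b, smad1 and mstnb.

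The bmp4 start region had the largest H3K27Ac change of a member start region at 9 hpi. Among 15750 genes with a region of both active marks within 5000 bp of their start, the 3 with the most similar changes in H3K27Ac and H3K4me3 at both times were abi3bp, bcl11ba and ecm2. Their distances from bmp4 over the 4 log2 changes were 0.127, 0.154 and 0.204. At abi3bp H3K27Ac was 11.4 in control muscle, 3.89 at 9 hpi and 4.64 at 18 hpi and H3K4me3 11.1, 5.76 and 4.29. At abi3bp and at bcl11ba the means of the regions of both marks lay below the low-value limits. These limits were 7.78 for H3K27Ac and 12.2 for H3K4me3.

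Of 120 other pathway genes listed by role, 87 had a region in at least 1 mark and 73 an H3K27Ac start region. At 9 hpi 8 of the 73 were higher (11.0%) and 7 lower (9.59%), against 12.4% and 6.34% of all genes. After centring the counts were 3 and 10, against 6.89% and 9.14% of all genes. Ligand genes held 7 of the 8 higher ones (3 after centring), among 21 measured with 2 lower. The higher regions of ndr2, bmp15, ndr1 and bmp10 lay 1694, 2151, 5716 and 9089 bp from the gene start and did not span it. Each lists 2 or 3 genes, so the change may not be at the named ligand gene. Antagonist and latency protein genes held 4 of the 7 lower ones, among 14 measured with 0 higher, and 6 after centring. Of these lower antagonist genes, nog2, chrdl2 and fstb had region means below the low-value limit. Among 16 receptor genes 0 were higher or lower (1 lower after centring), and among 5 other SMAD genes and 8 co-repressor and ubiquitin ligase genes 0 were. The median relative log2 changes at 9 hpi were 0.39 for ligands, −0.21 for receptors, 0.23 for other SMADs, −0.86 for antagonists, −0.0038 for co-repressors and ligases and −0.30 for 9 targets, beside 0.12 for all genes.

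Higher ligand genes at 9 hpi included ndr2, a Nodal ligand, with 10.0 in control muscle, 27.4 at 9 hpi and 21.4 at 18 hpi. Its region lies 1694 bp from the gene start and lists 3 genes. Also higher was bmp5 with 8.36, 21.3 and 24.0. The second zebrafish copy of the TGF-beta 1 gene, tgfb1b, had 16.4, 39.2 and 18.3, a relative log2 change of 0.98 at 9 hpi, and bmp10 had 2.09, 6.69 and 5.41 in a weak region 9089 bp upstream. Lower genes were bmp3 (9.33, 2.21 and 2.54), the BMP antagonist gene chrdl2 (8.36, 2.64 and 2.41), ctgfb, a matrix protein gene induced by TGF-beta (15.5, 5.43 and 6.63), and bmp6 (19.3, 7.46 and 6.74). The means of the bmp3 and chrdl2 regions lay below the low-value limit, and the regions of bmp3 and bmp6 lay 13874 and 59445 bp from the gene start.

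At 18 hpi 5 of the 73 H3K27Ac start regions were higher (6.85%) and 8 lower (11.0%), against 4.56% and 10.4% of all genes. After centring 5 were higher and 7 lower, against 6.79% and 7.78% of all genes. The higher ones included bmp5, gdf9 (5.83 in control muscle, 9.50 at 9 hpi and 15.5 at 18 hpi, in a region 9199 bp upstream) and bmp10. The lower ones included bmp3, chrdl2, bmp6 and fstl3, a follistatin-like gene whose product binds activin and myostatin (17.4, 9.58 and 5.53).

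In H3K4me3, 2 of the 76 other pathway genes measured were higher (2.63%) and 6 lower (7.89%) at each time. Of all genes 2.83% were higher and 2.96% lower at 9 hpi, and 3.96% and 3.05% at 18 hpi. The higher ones included ndr2, with 4.20 in control muscle, 11.4 at 9 hpi and 12.6 at 18 hpi, at a mean below the low-value limit. This region too lies 1694 bp from the ndr2 start and lists 3 genes. At 9 hpi the lower ones included dcn, the gene of the TGF-beta binding proteoglycan decorin (20.4, 7.79 and 10.4), fstl1a (22.7, 8.83 and 10.8), ctgfb (14.7, 6.03 and 8.31) and bmp6 (24.3, 10.3 and 8.06). At 18 hpi they included nog2, a noggin gene (29.6, 14.0 and 8.33), bmp6, bmper (21.5, 14.3 and 7.22) and the follistatin gene fsta (12.08, 5.35 and 4.18). The means of the ctgfb and fsta regions lay below the low-value limit. In H3K27me3, 0 of 76 were higher or lower at either time. Of all genes 0.431% and 0.536% were higher and 0.0874% and 0.163% lower, so a count of 0 lies near these shares.

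**Figure D4:**
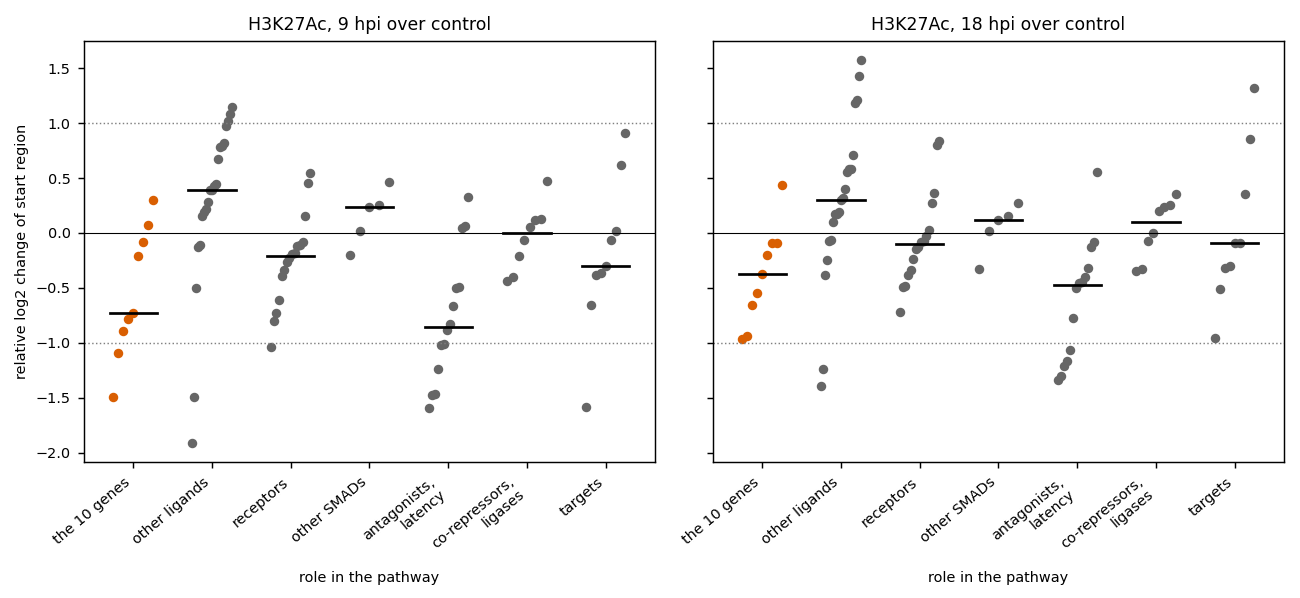
Relative log2 change of the H3K27Ac start region at 9 hpi and 18 hpi over control, 1 point per gene, for the members and for the other pathway genes by role, with the median as a bar and dotted lines at 2-fold. The medians at 9 hpi are −0.73 for the members, 0.39 for other ligands and −0.86 for antagonists and latency proteins.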

How the data were processed

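The submitters' processing notes name BWA, MACS2 2.1.0 and SICER 12.1, and danRer10 as the genome build, but neither their role nor their order. The authors deposited interval lists per library and a table of merged regions per mark. What was taken from these deposited tables is signal, namely the average and maximum tag pileup of a region with no ratio to input, and the columns of 0 or 1 for a called interval. How libraries were normalized is not stated in the sources at hand. Tag numbers are not known, so depth gives no interval for any value. Columns that fit no sample numbered 0. Distances are the authors' and run from the middle of a region.

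Changes were computed with a pseudocount of 1, which understates those of weak regions, in Python 3.11.15 with pandas 2.3.3. The low-value limit of a mark is the 25th percentile of the mean pileup of its regions. Counting was tested on simulated data with 200 changed regions. Members, gene lists and rules were chosen with earlier results of these data known. All members were named, and of the other pathway genes up to 4 per mark, time and direction, by size of change, with 1 of these not reported here. Alternatives were a pseudocount of 5, centring, maximum pileup, the region of highest signal, a 5000 bp limit, a low-value filter and, chosen after seeing the data, the region that spans the gene start. The input library was not used. No sequences are printed.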

Additional observations from a re-analysis of the deposited data

How the results depend on the processing

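No paired analysis was possible because each mark had 1 library per time and none carries a replicate number. With 1 library each, the counts below have no replicate check, and no alternative stands in for one.

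For the start regions of the 10 genes, the count past 2-fold in H3K27Ac at 9 hpi, 1 by the main rule, was 0 with a pseudocount of 5, 2 after centring, 0 with the maximum pileup and 2 with the region of highest signal. In H3K27Ac at 18 hpi the count of 2 became 0 with a pseudocount of 5, 0 after centring and 1 with the maximum pileup. In H3K4me3 the count of 1 at 9 hpi became 0 with a pseudocount of 5, the region of highest signal or the low-value filter and 2 with the maximum pileup, and the count of 2 at 18 hpi became 1 under each of these 4. In H3K27me3 the count of 0 at 9 hpi became 1 with the region of highest signal or the region that spans the start, and the count of 1 at 18 hpi became 2 with either and 0 with a pseudocount of 5. The bmp4 H3K27Ac change at 9 hpi was −1.27 on the average pileup and 0.0973 on the maximum pileup, the only value past 2-fold to change sign. With the maximum pileup 13 of 54 start region changes had the opposite sign, 12 of them short of 2-fold, among them smad3b H3K27Ac (−0.66 against 0.34 at 9 hpi and −0.70 against 0.22 at 18 hpi), and after centring 3 had. The cause was not tested.

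For the other pathway genes, the H3K27Ac count of 15 at 9 hpi became 2 with a pseudocount of 5 and 9 with the region of highest signal. The count of 13 at 18 hpi became 3 and 8 under these, and 7 with start regions within 5000 bp. The H3K4me3 count of 8 at 9 hpi became 2 with a pseudocount of 5, 5 with the region of highest signal and 4 with the low-value filter. At 18 hpi the count of 8 became 5 under each of these and 16 with the maximum pileup. The H3K27me3 count of 0 became 3 with the maximum pileup at each time, and 1 after centring at 18 hpi. A larger pseudocount shrinks every fold, and the filters leave fewer regions. The cause of the other shifts was not tested.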

Other observations

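Some pathway genes had more H3K27me3 at their start in both injured libraries without passing 2-fold, and they are named here after their values were seen. The start region of skib, a gene of the Ski family of SMAD co-repressors, had an average H3K27me3 pileup of 9.08 in control muscle, 17.7 at 9 hpi and 18.9 at 18 hpi. The BMP type II receptor gene bmpr2a had 8.04, 14.4 and 14.0 at these times. The TGF-beta type II receptor gene tgfbr2 had 6.41, 9.54 and 11.4. The latency protein gene ltbp3, whose product holds TGF-beta in the matrix, had 10.2, 16.7 and 16.7. Other pathway genes had less, such as bmp5 with 30.6, 25.1 and 21.0 and twsg1a with 9.43, 6.26 and 5.92. Of the 76 other pathway genes with an H3K27me3 start region, 41 changed by more than the median of kept regions at 9 hpi and 35 by less. At 18 hpi 36 lay above that median and 40 below. These differences have no replicate check and were not tested.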
